A study of Mus musculus with 12 samples.

Results

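The 8 genes described here are Ttr, Folr1, Kl, Kcne2, Clic6, Otx2, Aqp1 and Slc4a5, taken by symbol from the 18208 genes of an RNA-seq table of mouse striatum. All 8 were found in the table. They were chosen with the RNA-seq values of the same libraries in view, in which Ttr was highest in the second methamphetamine library. Their levels by library are therefore given as a description, with no test. Each library came from a pool of whole striata of 4 mice, 2 females and 2 males, labelled wild type and C57BL/6J, on post-natal day 50 to 100. The mice were bred from heterozygous Hnrnph1 mutant males and C57BL/6J females, and mutant mice were not analysed here. All mice were given saline on days 1 and 2, and on day 3 either saline again or methamphetamine at 2 mg/kg, injected into the peritoneum. Striata were taken 30 min later, and there were 3 pools per treatment. From each pool, some tissue was set aside for RNA-seq before the rest was cross-linked for CLIP-seq, which sequences the RNA fragments bound to an immunoprecipitated protein, here hnRNP H. The question addressed was which transcripts hnRNP H binds after each treatment, and how transcript levels differ.

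The choroid plexus is a folded sheet of epithelium over a core of vessels and connective tissue that hangs into the brain ventricles and secretes cerebrospinal fluid. Its epithelial cells move salts, bicarbonate and water from blood to fluid, and they make carrier proteins that are released into the ventricles. The plexus of the lateral ventricle lies along the ventricular face of the striatum, but is not a part of it. Ttr encodes transthyretin, a carrier of thyroid hormone and of retinol-binding protein. Folr1 encodes a folate receptor that takes folate across the epithelium, and Kl encodes klotho, a co-receptor for fibroblast growth factor 23 that is also released into the fluid. Aqp1 is a water channel, Slc4a5 a sodium bicarbonate cotransporter, Kcne2 an auxiliary subunit of potassium channels, and Clic6 a member of the chloride intracellular channel family. Otx2 is a homeodomain transcription factor needed for the formation and upkeep of the plexus. In the GENCODE annotation of GRCm38, Ttr (ENSMUSG00000061808) is on chromosome 18, and Kcne2 (ENSMUSG00000039672, chr16:92292389-92298129) and Clic6 (ENSMUSG00000022949, chr16:92485736-92541243) are both on chromosome 16. Aqp1 (ENSMUSG00000004655) is at chr6:55336432-55348555 and Slc4a5 (ENSMUSG00000068323) at chr6:83219828-83304945. Kl (ENSMUSG00000058488) is at chr5:150952607-150993817, Folr1 (ENSMUSG00000001827) at chr7:101858331-101870788 and Otx2 (ENSMUSG00000021848) at chr14:48657677-48673819.

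The RNA-seq libraries held 3935160 to 5091839 reads on genes, and the CLIP libraries held 423057 to 1635338 reads in peaks. RNA-seq levels are log2 CPM (read counts scaled to the size of the library), and each value could be turned back into a whole number of reads. The libraries fell into 2 sets along the first principal component of the RNA-seq values, which held 65.6% of the variance over 7853 genes. Saline replicates 1 and 3 and methamphetamine replicate 2 formed one set, and saline replicate 2 and methamphetamine replicates 1 and 3 the other. This split was read from the data and is not in the labels. Genes that define striatal projection neurons were present in each library: the 12 genes of that list, among them Adcy5, Ppp1r1b and Pde10a, summed to 8576 to 10547 CPM in saline and 7822 to 9618 CPM in methamphetamine libraries. In 0 of those 12 genes was methamphetamine replicate 2 the highest library.

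Ttr was the gene that set methamphetamine replicate 2 furthest apart from the other libraries. It had 561, 104 and 144 reads in saline replicates 1, 2 and 3, and 689, 20129 and 234 reads in methamphetamine replicates 1, 2 and 3. On the log2 CPM scale methamphetamine replicate 2 was at 12.17, and the remaining libraries lay between 4.46 and 7.30. The gap to the next library, saline replicate 1, was 4.86, and no other gene with at least 60 reads had a gap as large in any library. Apart from that library, the treatments overlapped: saline replicate 1 was above methamphetamine replicates 1 and 3, and saline replicates 2 and 3 were below them.

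Folr1, the other carrier, was scarce except in the same pool. Its reads were 3, 2 and 2 in saline and 7, 128 and 6 in methamphetamine libraries, so that the second methamphetamine library was again the highest, by 4.29 on the log2 scale. Folr1 was the 1 gene of the 8 whose saline and methamphetamine libraries did not overlap, but the lower 2 methamphetamine libraries rested on 7 and 6 reads. Over all genes, 2.44% had all 3 methamphetamine libraries above all 3 saline libraries, and 6.01% had no overlap in either direction. The gene overlaps Anapc15 on the opposite strand, and the use of strand in the counting is not given in the sources used here. Kl had 101, 65 and 107 reads in saline and 87, 628 and 50 in methamphetamine libraries. The second methamphetamine library exceeded the next by 2.33, and the remaining libraries of the treatments overlapped, the lowest of all 6 being methamphetamine replicate 3.

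The water and salt transporters had the same highest library. Aqp1 had 2, 4 and 2 reads in saline and 9, 177 and 4 reads in methamphetamine libraries, a gap of 4.42 on the log2 scale. Slc4a5 had 20, 14 and 24 reads in saline and 21, 241 and 8 in methamphetamine libraries, a gap of 3.18. Outside the highest library both genes were low, and the treatments overlapped. Kcne2 was at 2, 0 and 0 reads in saline and at 2, 31 and 0 in methamphetamine libraries. A count of 0 allows up to 3 reads, so the order of its other 5 libraries could not be read at this depth. Otx2 had 14, 16 and 6 reads in saline and 9, 39 and 2 in methamphetamine libraries, with a gap of 1.15, the smallest of the 8 genes. It overlaps Otx2os1 on the opposite strand and Gm49154 on its own strand.

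Clic6 was the least variable of the 8 genes outside the highest library. Its reads were 116, 101 and 121 in saline and 80, 557 and 130 in methamphetamine libraries. The other 5 libraries spanned 1.03 on the log2 scale, and the gap of methamphetamine replicate 2 above them was 1.96. The order of the other 5 libraries was not shared: methamphetamine replicate 1 had the lowest level of Clic6 and ranked 3 of 6 for Ttr. Saline replicate 1 was second for Ttr, Kl, Clic6 and Otx2. Methamphetamine replicate 1 was second for Folr1 and Aqp1, and saline replicate 3 for Slc4a5. For Kcne2, saline replicate 1 and methamphetamine replicate 1 both had 2 reads, so no second library is named. The levels of the 8 genes are not compared with each other, since the values are not scaled by transcript length.

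**Figure D1:**
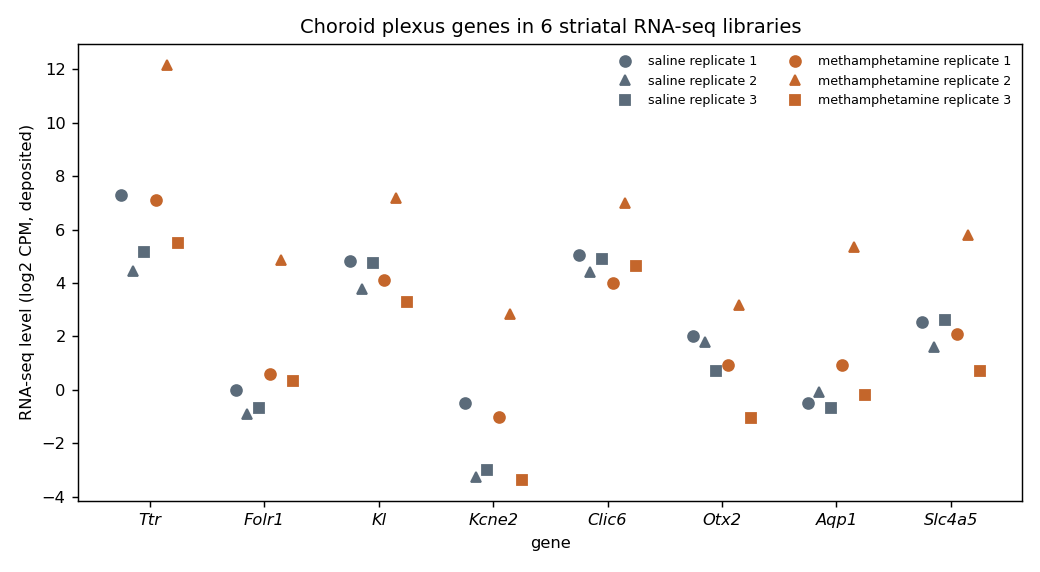
RNA-seq level of each of the 8 choroid plexus genes (log2 CPM as deposited, vertical axis) in each library, with colour for treatment and marker shape for replicate. Methamphetamine replicate 2 (orange triangle) is the highest point for 8 of 8 genes, from 1.15 above the next library for Otx2 to 4.86 for Ttr. Among the other 5 libraries the treatments overlap for every gene except Folr1.

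Together the 8 genes made up 0.449% of all reads of methamphetamine replicate 2, against 0.00651% to 0.0208% elsewhere. Summed, this was 4491 CPM against 65.1 to 208 CPM. Ttr made up 91.8% of the 8 genes' reads in that library and 34.0% to 76.2% elsewhere. Without Ttr, the other 7 genes summed to 369 CPM there, and elsewhere to between 39.3 and 65.6 CPM. The genes did not keep 1 ratio to each other. Per 1000 reads of Ttr, Clic6 had 27.7 reads in methamphetamine replicate 2 and 116 to 971 in the others, and Kl had 31.2 against 126 to 743. For Aqp1 the ratio in methamphetamine replicate 2, 8.79 reads per 1000 of Ttr, lay within the range of the others, 3.57 to 38.5. In bulk tissue, fewer cells of a type and less RNA per cell cannot be told apart.

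Other genes of the choroid plexus epithelium had their highest level in the same library. Of a list of 20 such genes, 20 were highest in methamphetamine replicate 2, against 13.9% of all genes. In 17 of 20 the gap to the next library was over 1 on the log2 scale (1.16% of all genes), and in 13 of 20 it was over 2 (0.242%). The list was drawn up with earlier results of these data known, so these counts are a description and nothing is read from them. Named from the list here are Enpp2, which encodes autotaxin and is also expressed by oligodendrocytes, Car12, a membrane-bound carbonic anhydrase, and Igfbp2, a binding protein for insulin-like growth factors. Igfbp2 had 73, 79 and 93 reads in saline and 103, 831 and 115 in methamphetamine libraries, so that a single library stood far above an otherwise narrow range. Enpp2 had 152, 368 and 213 reads in saline and 514, 1382 and 512 in methamphetamine libraries, and its treatments did not overlap. The list summed to 137 to 173 CPM in saline and to 211, 821 and 211 CPM in methamphetamine replicates 1, 2 and 3. Enpp2 alone made up 514 of the 1032 list reads in methamphetamine replicate 1 and 512 of 1073 in replicate 3. In saline replicates 1, 2 and 3 it made up 152 of 574, 368 of 815 and 213 of 641. None of the list's genes was at 0 in methamphetamine replicates 1 and 2 or in saline replicates 1 and 2. Prlr and Cldn2 were at 0 in saline replicate 3, and Kcnj13, Sostdc1 and Cldn2 in methamphetamine replicate 3.

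Among markers of cells that lie beside the plexus or run through it, the lists differed. Of the genes of ependyma 5 of 12, and of fibroblasts 4 of 10, were highest in that library. Both shares were above the 13.9% of all genes. For endothelium, blood, and thalamus and septum, 0 genes were highest there. Ependyma, the ciliated lining of the ventricles, is represented here by Foxj1, a regulator of motile cilia, with Rarres2 and Cfap65. Of its 12 genes, 5 were highest in methamphetamine replicate 2 and 0 by more than 1. Its sum was 60.2, 43.2 and 93.0 CPM in saline and 53.2, 104 and 45.6 CPM in methamphetamine libraries, highest in methamphetamine replicate 2. None of its genes was at 0 there, nor in saline replicate 3 or methamphetamine replicate 3. Of 10 genes of meningeal and stromal fibroblasts, 4 were highest in that library and 1, Igf2, by more than 1. Igf2, an insulin-like growth factor, had 154 to 196 reads in saline and 233, 878 and 304 in methamphetamine libraries. The collagen gene Col1a1 had 69 to 84 reads in saline and 105, 109 and 100 in methamphetamine libraries. On the log2 CPM scale, which allows for library size, its treatments overlapped. Aebp1 had 76 to 108 reads in saline and 85, 178 and 103 in methamphetamine libraries. The fibroblast list summed to 97.1 to 104 CPM in saline and to 115, 265 and 129 CPM in methamphetamine libraries, again highest in methamphetamine replicate 2. Igf2 alone made up 878 of the 1293 list reads there, against 233 of 565 in methamphetamine replicate 1 and 304 of 658 in replicate 3. In saline replicates 1, 2 and 3 it made up 157 of 411, 196 of 456 and 154 of 479. The median gap of the 10 genes was -0.54, and 1 of them was lowest in methamphetamine replicate 2. Of 8 endothelial and mural genes, among them Flt1, Rgs5 and Cldn5, 0 were highest there, and of 4 red blood cell genes, among them Hba-a1, Hbb-bt and Hbb-bs, also 0. Methamphetamine replicate 1 had the highest blood sum, 877 CPM, against 462 CPM in methamphetamine replicate 2 and 351 to 499 CPM in saline libraries. Of 9 genes of thalamus and septum, which border the striatum near the ventricle, among them Zic1, Rorb and Tcf7l2, 0 were highest in methamphetamine replicate 2. The part that choroid plexus cells in the pool had in these values was not tested.

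**Figure D2:**
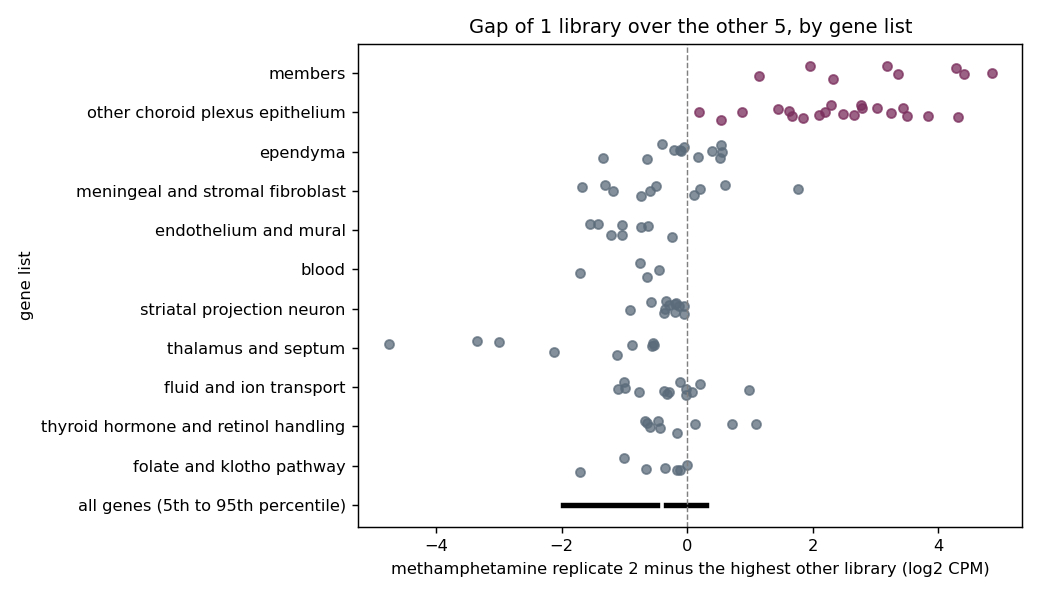
Gap between methamphetamine replicate 2 and the highest of the other 5 libraries for each gene (log2 CPM, horizontal axis), 1 point per gene, grouped by list, with the 8 genes of this report in the row of members. The black bar runs from the 5th to the 95th percentile of all 18208 genes, with a break at the median of -0.40. Points right of the dashed line are genes highest in that library: 8 of 8, and 20 of 20 other choroid plexus genes. Ependyma had 5 of 12, fibroblasts 4 of 10 and every other list at most 3. All lists were drawn up with earlier results of these data known.

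Genes that work with the 8 in the epithelium, but are made by other brain cells too, were highest in that library in 1 to 3 genes of each list. Of 13 genes of fluid and ion transport, among them the sodium pump subunit Atp1b1 and the potassium channel Kcna1, 3 were highest there and 0 by more than 1. The anion exchanger Slc4a2, one of these 3, had 204, 247 and 468 reads in saline and 334, 1010 and 389 in methamphetamine libraries. Of 9 genes of thyroid hormone and retinol handling, among them the receptors Thrb and Rara, 3 were highest there and 1 by more than 1. That gene was Stra6, the receptor for retinol-binding protein, with 26 to 30 reads in saline and 31, 80 and 29 in methamphetamine libraries. Of 7 genes of the folate and klotho pathway, among them Slc19a1, Fgfr1 and Fgfr4, 1 was highest there. The values of Slc4a2 and Stra6 were singled out after they had been seen.

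Likeness to Ttr was measured as the root mean square (RMS) difference between log2 CPM values centred on each gene's mean, over the 6 libraries. Among 13176 genes with at least 60 reads the median difference was 2.57. Tmem72, a membrane protein of the list of choroid plexus genes, was nearest at 0.70, with 8, 3 and 5 reads in saline and 8, 208 and 4 in methamphetamine libraries. Folr1 at 0.85 and Aqp1 at 1.01 came next, followed by Ecrg4, Sostdc1, Slc4a5, Dsp, Msx1, Lbp and Abca4, the tenth, at 1.46. Of the 10, 3 were among the 8 genes and 4 were in the list of other choroid plexus genes. Dsp, which encodes desmoplakin of epithelial junctions, Lbp, a lipopolysaccharide-binding protein, and Abca4, a retinoid transporter, were in no list. Kl ranked 19th, Clic6 34th and Otx2 51st, and Kcne2, with 35 reads, was below the minimum. These ranks describe 6 points of which 1 is far from the others. Of the 10 genes, 6 had fewer than 60 reads in the other 5 libraries together (17 to 28), so they reached the minimum only through methamphetamine replicate 2, and nothing is read from how many of the 10 are choroid plexus genes. Ranked by Pearson's r instead, 2 of the 10 genes were shared.

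**Figure D3:**
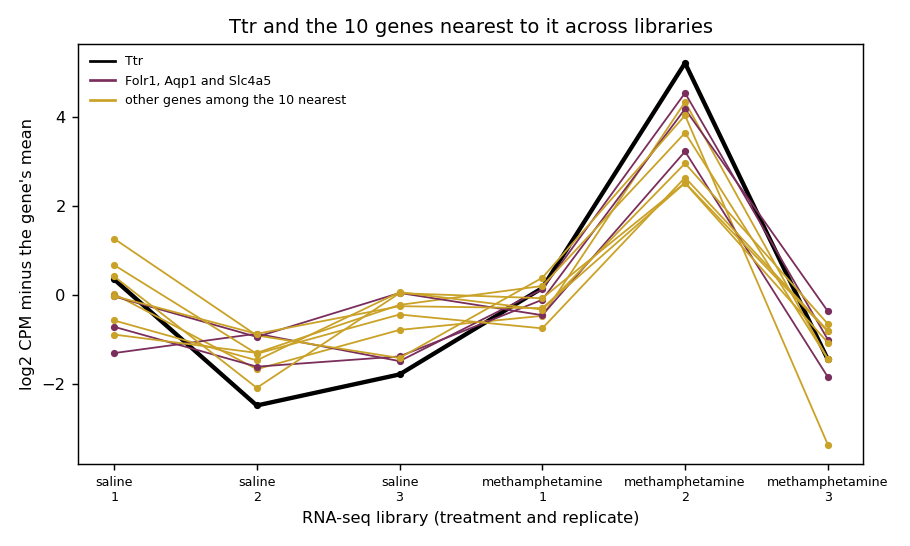
Log2 CPM minus the gene's mean over the 6 libraries (vertical axis) by library, for Ttr and the 10 genes nearest to it, with lines joining the libraries only to guide the eye. All 11 lines peak in methamphetamine replicate 2 and differ in the order of the other 5 libraries.

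The contrast of methamphetamine with saline gave large mean changes for some of the 8 genes and large errors with them. With limma on all 18208 genes, 0 (0%) had an adjusted p under 0.05 (smallest 0.9998) and 276 (1.52%) had an unadjusted p under 0.05; edgeR and DESeq2 on the recovered reads also gave 0, with 109 and 81 unadjusted. Ttr averaged 5.64 ± 1.48 (SD, n = 3) log2 CPM in saline and 8.26 ± 3.48 in methamphetamine libraries, a change of 2.61 ± 1.45 (SE) on the log2 scale. That was the largest positive change of all genes, with an adjusted limma p of 0.9998. Folr1 ranked 3 with 2.47 ± 1.08, and Aqp1 ranked 4 with 2.44 ± 1.20. Changes were 1.75 ± 1.45 for Kcne2, 0.62 ± 1.06 for Slc4a5, 0.43 ± 0.63 for Clic6, 0.41 ± 0.83 for Kl and -0.49 ± 0.94 for Otx2. Of the 8 genes, 7 had a positive change against 50.4% of all genes, and 1, Folr1, an unadjusted p under 0.05 (0.0476); since the genes were chosen from these values, nothing is read from those counts or from the ranks above. In edgeR the change of Ttr, a ratio of mean reads rather than of mean logs, was 4.47, and its adjusted p was 0.99998.

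Leaving out methamphetamine replicate 2, the library that was highest when the genes were chosen, had to lower all of these changes, and the values without it are given as a description. Without it, the limma change of Ttr was 0.66 ± 0.74, the 1343rd largest of all genes, that of Folr1 1.00 ± 0.60 and that of Aqp1 0.78 ± 0.63. Kcne2 was at 0.07 ± 1.10. The changes of Slc4a5 (-0.84 ± 0.55), Kl (-0.75 ± 0.38) and Clic6 (-0.46 ± 0.29) became negative, and that of Otx2 was -1.57 ± 0.71. The median of the 8 genes moved from 1.18 to -0.20, while the median of all genes was 0.0020 with the library and 0.0067 without it. The median of the 20 other choroid plexus genes moved from 1.11 to 0.11, with 19 positive changes before and 13 after. With 5 libraries, 0 of 18208 genes (0%) had an adjusted p under 0.05 and 50.7% had a positive change. The change of Enpp2 was 1.39 ± 0.42 with all libraries (adjusted p 0.9998 by limma) and 0.85 ± 0.26 without that one (adjusted p 0.809).

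**Figure D4:**
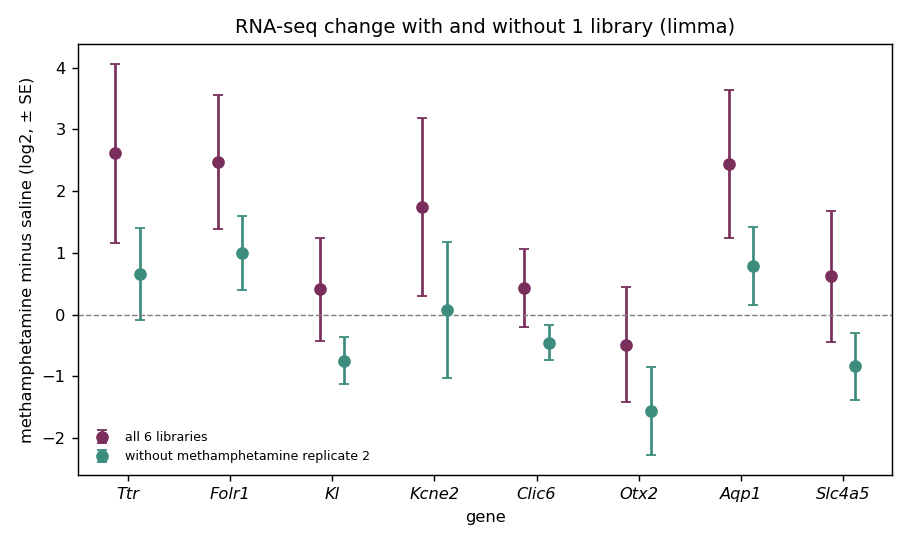
Change of each gene, methamphetamine minus saline (log2, vertical axis), by limma with all 6 libraries (purple) and without methamphetamine replicate 2 (green), with bars of ± SE. Without that library Ttr falls from 2.61 to 0.66, and Kl, Clic6 and Slc4a5 change sign.

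The values of Ttr within the 2 sets of libraries are given as a description, since they are those from which the genes were chosen. In the set with the outlying library, Ttr was at 7.30 and 5.16 log2 CPM in saline replicates 1 and 3 and at 12.17 in methamphetamine replicate 2. In the other set it was at 4.46 in saline replicate 2 and at 7.11 and 5.50 in methamphetamine replicates 1 and 3. With the set as a covariate the limma change was 3.89 ± 0.85 for Ttr, 3.30 ± 0.76 for Folr1 and 3.19 ± 1.00 for Aqp1, all with adjusted p of 0.999. One of the sets holds 1 methamphetamine library and the other 1 saline library, so each of these values leans on single pools.

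Of the 8 genes, Clic6 had the most CLIP reads in peaks. hnRNP H is an RNA-binding protein of nuclear transcripts known for binding runs of guanines and for its part in splicing. The 3 stretches of a Clic6 coding exon below were peaks. The first 2 were in neither of the authors' peak lists, and at the third reads were not counted. All 3 are shown because the first 2 held the most CLIP reads of the 8 genes and the third was listed for methamphetamine. They are given 5′ to 3′ on the transcribed plus strand, with runs of 3 or more G in capitals, as read from GENCODE transcripts of GRCm38.
Clic6 chr16:92498537-92498636: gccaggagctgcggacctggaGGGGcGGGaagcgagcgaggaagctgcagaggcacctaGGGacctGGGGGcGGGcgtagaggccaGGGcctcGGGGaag
Clic6 chr16:92498637-92498736: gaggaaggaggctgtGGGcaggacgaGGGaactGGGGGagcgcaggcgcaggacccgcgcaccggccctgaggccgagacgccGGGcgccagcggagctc
Clic6 chr16:92499137-92499236: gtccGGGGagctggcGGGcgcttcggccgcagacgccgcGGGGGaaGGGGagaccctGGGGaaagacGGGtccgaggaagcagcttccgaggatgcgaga
They hold 7, 4 and 6 such runs, and G makes up 50%, 47% and 47% of their bases. The other exonic peaks, not shown, held fewer reads or none counted. That of Kl had 1 run and 28% G and that of Kcne2 3 runs and 29%. The peak of Otx2 had 3 runs and 36%, and that of Aqp1 5 runs and 31%. For the exonic peak of Ttr, with 10 reads, the sequence was not read. In 700183 windows of 100 bases laid end to end over the longest protein-coding transcript of 21901 genes, searched for GGG on the transcribed strand, 64.2% held at least 1 run and the median was 1 run and 24% G. At least 4 runs were found in 4.98% of windows, at least 6 in 0.723% and at least 7 in 0.274%. These matches describe letters and are not evidence of contact at a given base.

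CLIP reads on the Clic6 coding exon did not have their highest value in the pool with the most Clic6 RNA. The first stretch had 2, 14 and 3 reads in saline and 20, 15 and 19 reads in methamphetamine libraries, or 1.90, 33.1 and 1.83 CPM against 22.0, 15.3 and 31.9 CPM. Saline replicate 2 was the highest of all 6 in CPM, so the treatments overlapped. The change was 1.32 on the log2 scale (edgeR quasi-likelihood test, adjusted p 0.9998), and it depended on single libraries: 3.85 without saline replicate 2 (adjusted p 0.708), 0.63 without saline replicate 1 and 0.60 without saline replicate 3 (adjusted p 0.9995 and 0.99998). The second stretch, directly downstream, had 1, 0 and 2 reads in saline and 6, 11 and 18 in methamphetamine libraries. All 3 methamphetamine libraries were above all 3 saline libraries in CPM there, as in 4.94% of the peaks with at least 10 reads. That position was below the count filter of the main test, and without the filter its change was 3.68 with an edgeR adjusted p of 0.321. An intronic position of Clic6, chr16:92490737-92490836, had 3, 5 and 3 reads in saline and 7, 0 and 5 in methamphetamine libraries, which overlapped.

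Over all 10358 peaks tested by edgeR, 0 (0%) passed an adjusted p of 0.05 and 347 (3.35%) an unadjusted one; DESeq2 gave 0 and 345. Summed over its positions, Clic6 had 7, 19 and 8 CLIP reads in saline and 36, 26 and 42 in methamphetamine libraries. It was the 1 gene of the 8 to pass the count filter on gene sums, with a change of 1.39 (edgeR adjusted p 0.883). This change was 2.96 without saline replicate 2 (adjusted p 0.458), 0.92 without saline replicate 1, 0.82 without saline replicate 3 and 0.91 without methamphetamine replicate 3. Of 8177 gene sums tested, 0 (0%) passed an adjusted p of 0.05 and 429 (5.25%) an unadjusted one; DESeq2 gave 0 and 396. Clic6 overlaps 2410124H12Rik on the same strand, and a listed position in an intron of Clic6 carries that gene's identifier in the authors' list.

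Ttr, Kl, Kcne2, Aqp1 and Slc4a5 had fewer CLIP reads than Clic6. Ttr, despite its 20129 RNA-seq reads in methamphetamine replicate 2, had 3 CLIP reads in that pool, and 3, 0 and 2 in saline and 12 and 0 in the remaining methamphetamine libraries. Of 24 genes with RNA-seq reads within 2-fold of Ttr in that pool, the median was 49.5 CLIP reads and 6 had no more than Ttr. Its best position, in an untranslated exon, had 10 reads, 8 of them in methamphetamine replicate 1. An intron of Kl, chr5:150955308-150955407, had 1, 2 and 13 reads in saline and 1, 0 and 0 in methamphetamine libraries, with most reads in the deepest CLIP library. In CPM it was at 0.95, 4.73 and 7.95 in saline and at 1.10, 0 and 0 in methamphetamine libraries. Slc4a5 had 3 intronic positions. The first, chr6:83238829-83238928, had 3, 2 and 15 reads in saline and 4, 2 and 0 in methamphetamine libraries, and the other two had 17 and 12 reads in all. Kcne2 had 13 reads and Aqp1 7 reads over all libraries. Folr1 and Otx2 had no position in the table of counts, so that their CLIP reads are not known here.

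In CLIP reads summed over the 6 genes with a counted position, methamphetamine replicate 2 was not the highest library. These genes had 17.1, 63.8 and 36.7 CLIP CPM in saline and 67.1, 40.8 and 82.3 CLIP CPM in methamphetamine libraries, and methamphetamine replicate 2 was the lowest of its treatment. The sums of the assays rest on different genes: in that pool Ttr made up 91.8% of the RNA-seq reads of the 8 genes, whereas 26 of the 40 CLIP reads were from Clic6 and 3 from Ttr. Of the 5 genes with at least 10 CLIP reads, 0 were highest in that library, against 12.5% of all genes. Of 11 other choroid plexus genes with at least 10 CLIP reads, 3 (27.3%) were: Kcnj13, a potassium channel, Slc13a4, a sulfate transporter, and Trpv4, a cation channel. Kcnj13 had 3, 0 and 8 CLIP reads in saline and 2, 11 and 3 in methamphetamine libraries. The choice of these 3 genes followed from their values.

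**Figure D5:**
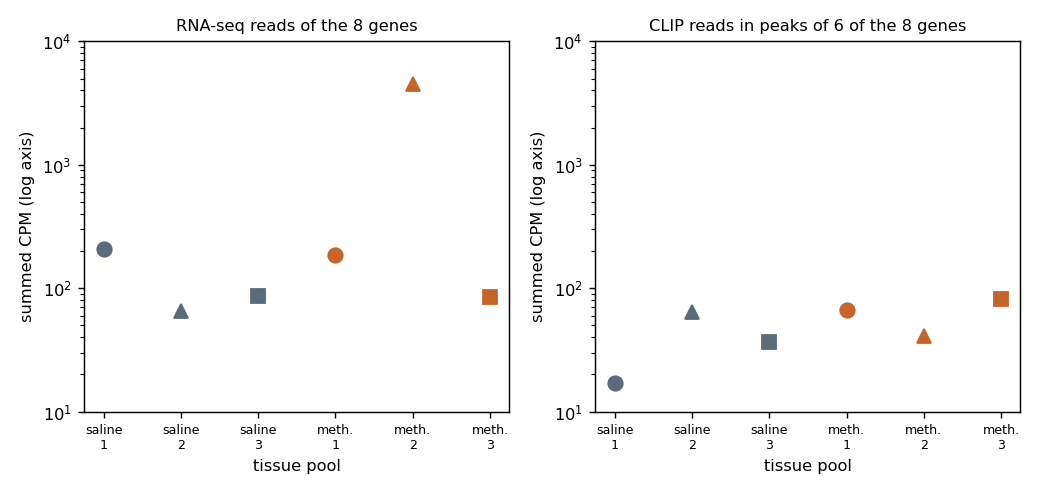
Summed CPM of the 8 genes in RNA-seq (left) and, in CLIP, of the 6 of them with a counted peak (right) for each tissue pool, on log axes of equal range. In RNA-seq the second methamphetamine pool is at 4491 CPM against 65.1 to 208 CPM, and in CLIP it is at 40.8 CPM within a range of 17.1 to 82.3 CPM.

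In the authors' deposited peak lists, made per treatment, 2 of the 8 genes (25%) had a peak, against 38.7% of all genes in the RNA-seq table and 9 of 20 other choroid plexus genes. The intron of Kl named above was in the saline list, with a signal score of 1.42 and a q-value of 0.009298 in the authors' deposited table. Clic6 had 2 positions under its own name in the methamphetamine list. In the authors' deposited table the third coding stretch shown above had a signal score of 1.43 and a q-value of 0.008185, and the intronic position at 92490737 had 1.23 and 0.01677. An overlapping window, chr16:92490743-92490842, listed for 2410124H12Rik, had 2.65 and 0.02638 in the authors' deposited table. A listing under one treatment is not a test of a difference between treatments.

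The promoters of 5 of the genes (Kl, Aqp1, Slc4a5, Otx2 and Kcne2) were found among RefSeq promoter windows of GRCm38.p6, each of 300 bases, 250 before the start and 50 after. In 9 windows, TAATCC, the core that OTX2 is known to bind, was searched on both strands (GGATTA on the other). It was found once, 211 bases before one of the starts of Otx2 itself. Of 32851 promoter windows, 7.06% held it. A match is a description of letters only.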

How the data were processed

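RNA-seq values were deposited by the authors as log2 CPM, and per the file headers CLIP reads were deposited as counts per 100-base peak. In the authors' peak lists, signal values are a score and each peak has a deposited q-value. Per the submitters' processing notes, Trimmomatic, UMI-tools, STAR, bedtools, Subread, featureCounts, limma and edgeR were used with mm10; their roles and versions are not given in the sources used here. UMI handling and strand affect the counts and could not be checked.

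The 8 genes and all lists were chosen with earlier results of these data known. Named are these 8 genes, the 3 genes of each list with the highest mean log2 CPM (not scaled by length), list genes with an adjusted p under 0.05 (0 found), the 10 genes nearest to Ttr, and CLIP positions of the 8 genes with at least 10 reads; a few names that this rule gives are not reported here. All log2 CPM values (offset 0.5 reads) were inverted to whole reads; 100% came out whole. Changes were tested with limma 3.58.1 (trend) on the log2 values and with edgeR 4.0.16 (quasi-likelihood, TMM, filterByExpr) on counts, in R 4.3.3, with Benjamini-Hochberg adjustment over all features; fold changes on the log2 scale with an offset understate those of low genes. DESeq2 1.42.0 was an alternative. Repeated lines were merged, leaving 147438 CLIP positions of 172271 lines. CPM given for sums uses plain totals of reads. The p-values measure the spread between 3 pools per treatment, and n = 3 limits their precision.

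Tested on simulated data, a log2 change of 2 given to 200 of 18208 genes was found by limma in 82.5%, with 10 false calls. A change of 4 was found in 100%, with 13 false calls. On 16910 CLIP gene sums edgeR recovered 3.5% at 2 and 99% at 4, with 0 and 5 false calls. On 10358 peaks edgeR recovered 96% at 4, with 13 false calls. In each simulation the 200 changed features were drawn from those with a mean of at least 10 reads per library. No split into library sets was simulated. Each rate covers all 200 changed features together. No separate rate was obtained for low genes or for genes set apart by a single library. The power to find a change in the genes of this report is therefore not known from these rates. Replicate numbers were not used to pair samples. Same-numbered libraries deviated with r of -0.35, -0.82 and -0.49 in RNA-seq and -0.29, -0.52 and -0.08 in CLIP. For each number, the saline and methamphetamine RNA-seq libraries fell in different sets. These values therefore cannot show whether same-numbered pools were handled together. One gene of the blood list, Hba-a2, was not used here, and 1500015O10Rik was matched as Ecrg4 through RefSeq synonyms.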

Additional observations from a re-analysis of the deposited data

How the results depend on the processing

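No gene or peak passed an adjusted p of 0.05 in any alternative except for CLIP peaks with no count filter, where 414 of 140449 positions passed, 24 of them higher after methamphetamine and none in the 8 genes. Across alternatives, unadjusted calls numbered 81 to 958 for RNA-seq (276 in the chosen fit), 127 to 6792 for CLIP peaks (347) and 183 to 982 for CLIP gene sums (429). With the replicate number as a block, 0 passed an adjusted p of 0.05. Unadjusted calls numbered 144, 127 and 183, against 276, 347 and 429 without it. The numbers were not used to pair samples in the chosen fits, and the block changed no call at an adjusted p of 0.05. Leaving out each library in turn, the RNA-seq change ran from 0.66 to 3.99 for Ttr, 1.00 to 3.27 for Folr1, 0.78 to 3.56 for Aqp1 and 0.07 to 3.18 for Kcne2. It reversed for Kl (-0.75 to 1.19), Clic6 (-0.46 to 1.03) and Slc4a5 (-0.84 to 1.70), each lowest without methamphetamine replicate 2, and for Otx2 (-1.57 to 0.54), highest without methamphetamine replicate 3. For Clic6 the CLIP gene sum change ran from 0.82 to 2.96. Otx2 also reversed on recovered reads, to 0.29 with edgeR and 0.33 with DESeq2, and DESeq2 gave Ttr no p-value. Of the 10 genes nearest to Ttr, 5 were shared with a minimum of 200 reads. Levels of Folr1, Aqp1, Kcne2 and Otx2 outside methamphetamine replicate 2 rest on at most 16 reads per library.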

Other observations

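Beside the listed genes, 8 genes with at least 60 reads exceeded the next library by over 2 on the log2 scale in methamphetamine replicate 2 without being in any list: Frem1, Lbp, Abca4, Col8a2, Sema3b, Krt18, Drc7 and Mfrp. Krt18, an epithelial keratin, had 8, 6 and 13 reads in saline and 3, 68 and 5 in methamphetamine libraries. Col8a2, a collagen of basement membranes, had 23, 14 and 30 reads in saline and 13, 172 and 17 in methamphetamine libraries. Mfrp, a membrane protein known from the eye, had 94, 69 and 84 reads in saline and 95, 499 and 94 in methamphetamine libraries, so that the other 5 libraries lay close together. In all, 24 genes had such a gap in that library, against 0 to 6 genes in each of the other 5, and 9 genes against 0 had a gap over 3. Of the 24, 10 had fewer than 60 reads in the other 5 libraries together and so reached the minimum only through that library; the other 14 stood against 0 to 3 genes counted in the same way in each other library. Methamphetamine replicate 1 had the second most, 6 genes, led by Frem3 with a gap of 2.61. These genes were found after their values had been seen, and no test was made.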
